A study of Mus musculus and Rattus norvegicus with 35 samples.

Results

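Gene and circular RNA levels of the adult mouse testis were set against those of brain, heart, liver and lung. The members were the 3 testis libraries of the series, taken by their labels, and the comparison group was the 12 libraries of the other 4 tissues, out of 35 samples in all. Each tissue of C57BL/6 mice had 1 library used here from animals of 14 weeks and 2 from animals of 20 weeks. A further brain library of 14 weeks, made by poly(A) selection, was left out. Total RNA was extracted with TRIZOL, depleted of ribosomal RNA and sequenced on Illumina machines, and the wider study surveyed circular RNAs across mouse and rat tissues with an emphasis on neural samples. No treatment or genetic change was given in the labels, which also do not say whether libraries of a tissue came from separate animals or from pools. The p-values below therefore measure the spread between libraries, which may be technical. Testis values are listed in the order 14-week library, 20-week library 1, 20-week library 2.

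Sperm form in the seminiferous tubules, where spermatogonia divide, enter meiosis as spermatocytes and emerge as spermatids that compact their DNA with protamines and build an acrosome and a tail. Sertoli cells of the tubule wall support these germ cells, and Leydig cells between the tubules make testosterone. A circular RNA, or circRNA, arises when a splice donor is joined to an acceptor that lies upstream of it, a reaction called back-splicing; it has no poly(A) tail, so ribosomal RNA depletion keeps it, and it is counted by reads across the back-splice junction. The testis is known for an unusually broad and germ-cell-specific set of transcripts.

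The testis label fitted its markers. Dazl, an RNA-binding protein required for germ cells, stood at 87.0, 96.2 and 114 TPM in testis and at 0 to 3.98 TPM (median 0.105) in the other tissues. Sycp3, a structural protein of the synaptonemal complex that holds paired meiotic chromosomes together, stood at 409.9, 306 and 332 TPM in testis and at 5.99 to 35.3 TPM (median 11.8) elsewhere. Crem, a transcriptional activator of spermatids, stood at 596, 425 and 433 TPM in testis and at 20.9 to 57.5 TPM (median 41.0) elsewhere. For all 3 markers every testis library lay above every library of the other tissues. TPM is a level per transcript length, scaled to the same total in every library; differences are given below on the log2(TPM + 1) scale as testis minus the mean of the 4 other tissue means, ± the standard error, with limma's p adjusted by Benjamini-Hochberg over all 18966 genes of at least 1 TPM in 3 or more libraries. Adding 1 TPM shrinks the differences of low genes. The difference was 6.02 ± 0.15 for Dazl (adjusted p = 9.29e-14), 4.57 ± 0.20 for Sycp3 (adjusted p = 3.85e-11) and 3.63 ± 0.18 for Crem (adjusted p = 2.09e-10).

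Over all tested genes, 6243 were higher in testis than the mean of the other tissues, 32.9% of those tested, and 9062 were lower, or 47.8%. The median difference over all genes was -0.41. Against single tissues it was -0.53 for brain and -0.54 for lung, but 0 for heart and 0.50 for liver; 5209 genes were higher and 9016 lower than in brain, 6832 and 6507 than in heart, 8952 and 4187 than in liver, and 5514 and 9119 than in lung. Testis stood above each of the 4 tissues singly for 3971 genes (20.9%) and below each for 2423 (12.8%). Leaving out 20-week testis library 1 or 2, with the filter applied again, lowered the first of these counts to 2506 or 2515. The genes tested then numbered 17644 or 17650, as a gene seen only in testis could no longer reach 1 TPM in 3 libraries. The values of the 3 testis libraries and the 12 others did not overlap for 4006 genes higher in testis (21.1%) and 2750 lower (14.5%). The filter of 1 TPM in 3 libraries counts the testis libraries. Genes under 1 TPM in all 12 others, such as Stra8, Dmrt1 and Hsd17b3, were tested only because all 3 testis libraries reached it. Counts of higher genes, and the adjusted p of such members, are set in part by this filter. Of tested lincRNAs, which are long noncoding RNAs between protein-coding genes, 547 of 1315 (41.6%) were higher in testis, beside 5696 of 17651 coding genes (32.3%). In these bulk samples a smaller share of cells of a type and less RNA per cell cannot be told apart. The lists of genes described next are read against the shares for all genes, and the members' medians stand beside the -0.41 of all genes.

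**Figure D1:**
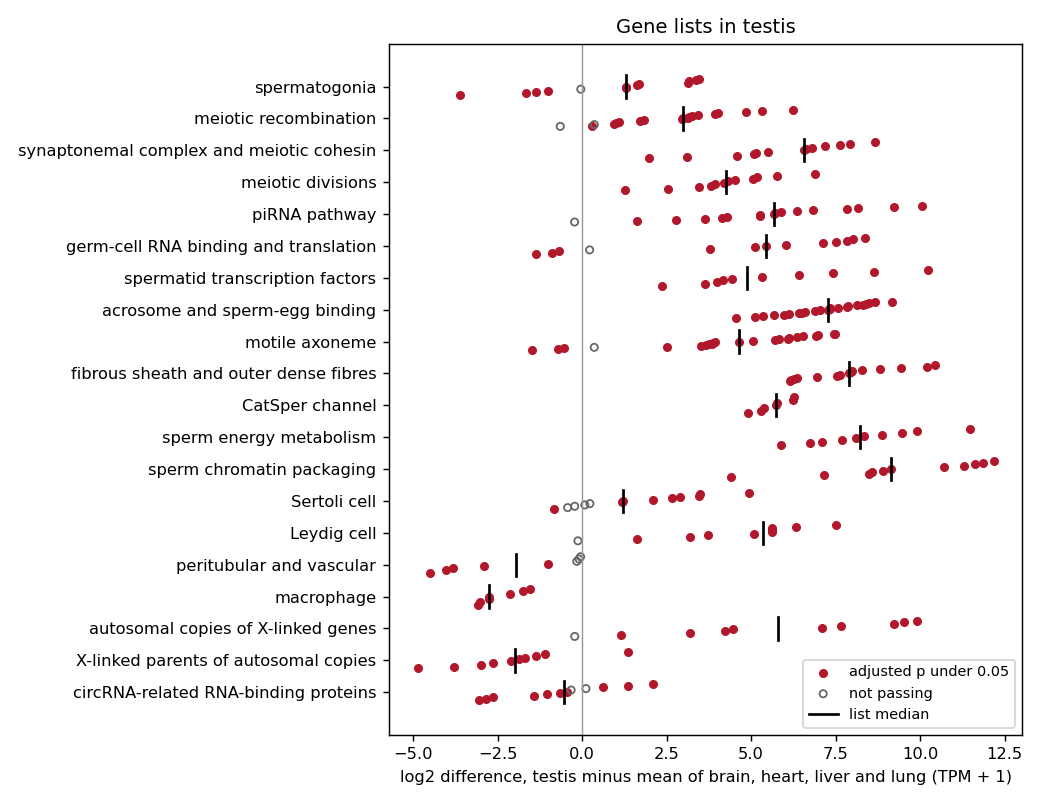
Differences in log2(TPM + 1), testis minus the mean of the other 4 tissue means, for the tested members of 20 gene lists, without those of red blood cells, epididymis and the other tissues; each point is 1 gene, filled where it passed and open where it did not, and the bar is the list's median. Among the lists drawn, medians run from 9.14 for sperm chromatin packaging and 8.22 for sperm energy metabolism to -2.76 for macrophage genes, beside -0.41 over all genes tested.

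Of 13 tested genes of spermatogonia, the stem and dividing germ cells, 8 were higher in testis, 4 were lower and 1 did not pass, with a median of 1.31. Stra8, which is needed for entry into meiosis, stood at 7.85, 7.16 and 8.20 TPM in testis and was listed at 0 in all 12 other libraries (adjusted p = 2.14e-14). Dmrt1, a transcription factor of spermatogonia and Sertoli cells, stood at 7.35, 11.4 and 12.1 TPM in testis and was likewise listed at 0 in the others (adjusted p = 1.30e-12). Sohlh2, a germ-cell helix-loop-helix factor, stood at 7.18, 8.89 and 7.87 TPM in testis and at no more than 0.0897 TPM elsewhere. These genes were low in testis but nearly absent from the other tissues. They met the filter of 1 TPM in 3 libraries only through testis, so their adjusted p is set in part by that filter. Stem-cell genes that other tissues also use went the other way: Zbtb16 fell to 1.46, 1.69 and 1.17 TPM in testis against 5.27 to 133 TPM (median 24.1) elsewhere, with a difference of -3.60 ± 0.44 (adjusted p = 3.52e-06), and Gfra1, Kit and Ret were lower too.

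All 13 genes of the synaptonemal complex and of meiotic cohesin were higher in testis, each of them above each other tissue, with a median of 6.57. Syce1, a protein of the central element of the complex, stood at 486, 486 and 512 TPM in testis and at 0 to 1.22 TPM (median 0.125) elsewhere. Hormad1, which marks unpaired chromosome axes, stood at 244, 176 and 201 TPM in testis and at no more than 0.291 TPM elsewhere. Sycp1, the transverse filament, stood at 211, 141 and 149 TPM in testis and at 0 to 3.35 TPM (median 0.149) elsewhere. The 3 genes were separated from all other tissues in every testis library, with differences of 8.66 ± 0.18, 7.62 ± 0.13 and 6.82 ± 0.19 (adjusted p = 9.81e-15, 2.33e-15 and 1.99e-13). Syce3 and Stag3, a central-element protein and a meiotic cohesin subunit, differed by 7.91 and 7.18.

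Genes of meiotic recombination were less uniform: 17 of 19 were higher in testis and 2 did not pass, while 13 stood above each tissue, and the median was 2.99. Spo11, which makes the DNA breaks that start recombination, stood at 89.0, 99.3 and 85.8 TPM in testis and at 0 to 1.04 TPM (median 0.180) elsewhere, a difference of 6.25 ± 0.18 (adjusted p = 3.38e-13). Dmc1, the strand-exchange protein specific to meiosis, stood at 13.4, 16.1 and 17.5 TPM in testis and at 0 to 1.38 TPM (median 0.535) elsewhere, a difference of 3.43 ± 0.12 (adjusted p = 2.38e-12). Both were well separated. Among the members that did not pass was Prdm9, which sets the sites of meiotic breaks, at 5.22, 8.90 and 7.46 TPM in testis against 1.37 to 11.5 TPM (median 5.19) elsewhere (adjusted p = 0.249). With values scaled to equal quantiles, 16 of the 19 were higher. All 12 genes of the meiotic divisions were higher and above each tissue, with a median of 4.26. Ccna1, the cyclin of male meiosis, stood at 147, 165 and 169.8 TPM in testis and at 0 to 1.29 TPM (median 0.323) elsewhere, and Hspa2, a testis chaperone, stood at 442, 639 and 649 TPM against 0.745 to 47.0 TPM (median 11.2). Their differences were 6.88 ± 0.16 and 5.77 ± 0.17 (adjusted p = 3.39e-14 and 5.80e-13).

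The piRNA pathway silences transposons in germ cells with small RNAs bound by Piwi proteins; 16 of its 17 tested genes were higher in testis, 14 of them above each tissue, with a median of 5.68. Ddx4, the RNA helicase also called Vasa, stood at 317, 416 and 428 TPM in testis and at 0.0410 to 3.30 TPM (median 0.466) elsewhere. Gtsf1, a cofactor of Piwi proteins, stood at 908, 706 and 678 TPM in testis and at 0 to 1.24 TPM (median 0.160) elsewhere. Piwil1, the Piwi protein of late spermatocytes and spermatids, stood at 46.9, 111 and 111 TPM in testis and at no more than 0.205 TPM elsewhere. No other library came near the testis values of these 3 genes, and for Piwil1 the 14-week library was the low one. The differences were 7.82 ± 0.16, 9.22 ± 0.24 and 6.34 ± 0.20 (adjusted p = 7.88e-15, 1.13e-13 and 1.15e-12). Piwil4, the Piwi protein of fetal male germ cells, did not pass, at 0.123, 0.491 and 0.666 TPM in testis and 0 to 7.04 TPM (median 0.0886) elsewhere (adjusted p = 0.198). Mov10l1, a helicase of the pathway with a heart isoform, was higher in testis than the mean but not than heart, at 44.5, 59.7 and 61.5 TPM in testis and a mean of 58.0 TPM in heart. Among genes of RNA binding and translation in germ cells, 9 of 13 were higher, 3 were lower and 1 did not pass, with a median of 5.44. Ybx2, which stores mRNAs of spermatids, stood at 1002, 1236 and 1093 TPM in testis and at 0 to 24.2 TPM (median 2.65) elsewhere, and the 3 lower members were Cpeb1, Tsn and Tsnax, which the brain libraries held at higher levels.

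All 10 transcription factors of spermatids and late spermatocytes were higher in testis and above each tissue, with a median of 4.88. Fhl5, the coactivator of Crem also called ACT, stood at 585, 460.1 and 457 TPM in testis and at 0 to 1.17 TPM (median 0.0619) elsewhere, a difference of 8.63 ± 0.15 (adjusted p = 2.33e-15). Spz1, a helix-loop-helix factor of the testis, differed by 10.23 ± 0.30, the largest of the list. The genes that pack sperm chromatin held the 3 largest differences among the genes named by size, those of Tnp1, Prm2 and Prm1. All 11 were higher, 10 of them above each tissue, with a median of 9.14. Their levels summed to 64927, 41709 and 39739 TPM in testis, and to 0.631 to 69.9 TPM (median 24.6) in the other libraries. Tnp1, a transition protein that replaces histones before protamines do, stood at 19688, 14167 and 14417 TPM in testis and at 0 to 14.7 TPM (median 2.55) elsewhere. Prm1, a protamine, stood at 16285, 7589 and 7379 TPM in testis and at 0 to 7.71 TPM (median 2.43) elsewhere. Their differences were 12.18 ± 0.85 and 11.63 ± 0.71 (adjusted p = 8.91e-09 and 2.04e-09), and the testis libraries lay far above all others. Hist1h2ba, the testis histone H2B, stood at 4922, 1287 and 1175 TPM in testis and at 0 to 2.71 TPM (median 0) elsewhere, but histone genes have near-identical copies between which reads may be split. Chd5, a chromatin remodeller also found in neurons, did not pass against brain.

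Crem binds cAMP response elements, so promoter sequences at the RefSeq gene starts (GRCm38.p6) were searched on both strands for TGACNTCA. These are the letters of the palindromic element TGACGTCA with any base at the N, and on the other strand the match reads TGANGTCA. The stretch searched and counted was longer than the 150 bases before the gene start that are printed here. Some of the matches counted below therefore lie outside those 150 bases. Prm1 and Tnp1 are shown for the chromatin genes and Akap4 for the tail, as members that held a match; Prm2, whose difference was larger than that of Prm1, held none. Capitals mark the match, and all 3 are given on the gene's strand.
Prm1, chr16:10796824-10796973, minus strand: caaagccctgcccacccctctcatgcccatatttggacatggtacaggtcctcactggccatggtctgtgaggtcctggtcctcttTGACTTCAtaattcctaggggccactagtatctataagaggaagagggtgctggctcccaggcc
Tnp1, chr1:73015900-73016049, minus strand: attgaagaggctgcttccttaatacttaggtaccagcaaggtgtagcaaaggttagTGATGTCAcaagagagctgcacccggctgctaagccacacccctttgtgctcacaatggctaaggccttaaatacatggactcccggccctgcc
Akap4, chrX:7067365-7067514, plus strand: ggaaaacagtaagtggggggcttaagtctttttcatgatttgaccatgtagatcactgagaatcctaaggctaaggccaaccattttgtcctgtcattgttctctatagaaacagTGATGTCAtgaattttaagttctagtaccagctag
The first base of the match lay at -64, -94 and -35 from the gene start. The letters occurred in 10.0% of all 27025 promoters in the table and in 9.45% of the 14211 tested genes that had one. They occurred in 464 of 3009 genes above each tissue (15.4%) and in 130 of 1917 below each (6.78%). By list, 4 of 11 chromatin packaging genes, 6 of 13 fibrous sheath genes and 5 of 16 acrosome genes held them. Other testis lists held few: 0 of 14 piRNA genes, 0 of 6 CatSper genes, 0 of 9 genes of germ-cell RNA binding, 1 of 20 axoneme genes and 1 of 13 synaptonemal genes. The short lists of peritubular and vascular genes and of brain genes each had 2 of 4. The symmetric form TGACGTCA, a subset of these matches, occurred in 2.03% of all promoters and in 3.07% of those of tested genes, beside 3.62% of those above each tissue and 2.97% of those below each. It occurred in 0 of the 11 chromatin genes, 0 of the 13 sheath genes and 1 of the 16 acrosome genes. A match describes the letters only and is not a binding site.

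All 23 genes of the acrosome and of sperm-egg binding were higher in testis and above each tissue, with a median of 7.29. Spesp1, a protein of the equatorial segment, stood at 167, 164 and 167 TPM in testis and at no more than 0.0941 TPM elsewhere, a difference of 7.35 ± 0.10 (adjusted p = 7.52e-16). Adam5, a member of the sperm ADAM surface proteins, stood at 969.6, 880.0 and 938 TPM in testis and at 0 to 1.73 TPM (median 0.538) elsewhere, a difference of 9.18 ± 0.13 (adjusted p = 8.12e-16). The 3 testis libraries were close to each other for both. All 15 genes of the fibrous sheath and outer dense fibres of the tail were higher and above each tissue, with a median of 7.91. Akap4, the main protein of the fibrous sheath and a gene of the X chromosome, stood at 1618, 1516 and 1495 TPM in testis and at 0 to 0.784 TPM (median 0.420) elsewhere, a difference of 10.20 ± 0.20 (adjusted p = 8.12e-15). Odf2, whose protein is also part of centrosomes, reached 3546, 4127 and 4211 TPM in testis but was present in every other library too, at 13.4 to 167 TPM (median 64.4). All 7 tested subunits of CatSper, the calcium channel of the sperm tail, were higher and above each tissue; Catsper1, its pore subunit, stood at 36.6, 42.2 and 35.5 TPM and was listed at 0 in the 12 others. Tssk1 and Tssk2, and Catsperg1 and Catsperg2, are close copies, and their split of reads is uncertain.

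Genes of the motile axoneme, the microtubule core that sperm tails share with cilia of the airways and brain ventricles, were mixed: 19 of 23 were higher in testis, 18 of them above each tissue, 3 were lower and 1 did not pass, with a median of 4.65. Spag16, a protein of the central pair, stood at 253, 246 and 261 TPM in testis and at 0 to 18.2 TPM (median 0.583) elsewhere, a difference of 6.54 ± 0.19 (adjusted p = 4.30e-13). Dnahc8, an outer-arm dynein heavy chain of sperm, stood at 114, 445 and 470.1 TPM in testis and at 0.0659 to 2.36 TPM (median 0.382) elsewhere, a difference of 7.47 ± 0.31 (adjusted p = 2.71e-11). Both were high in every testis library, though Dnahc8 was lowest in the 14-week one. Dynein heavy chains of cilia were lower: Dnahc5 stood at 0.858, 1.33 and 1.99 TPM in testis with a lung mean of 32.7 TPM (difference -0.53, adjusted p = 0.00448), and Dnahc11 and the radial spoke gene Rsph4a differed by -0.72 and -1.49 (adjusted p = 0.0221 and 8.24e-06). Dnahc9 did not pass (adjusted p = 0.0935).

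**Figure D2:**
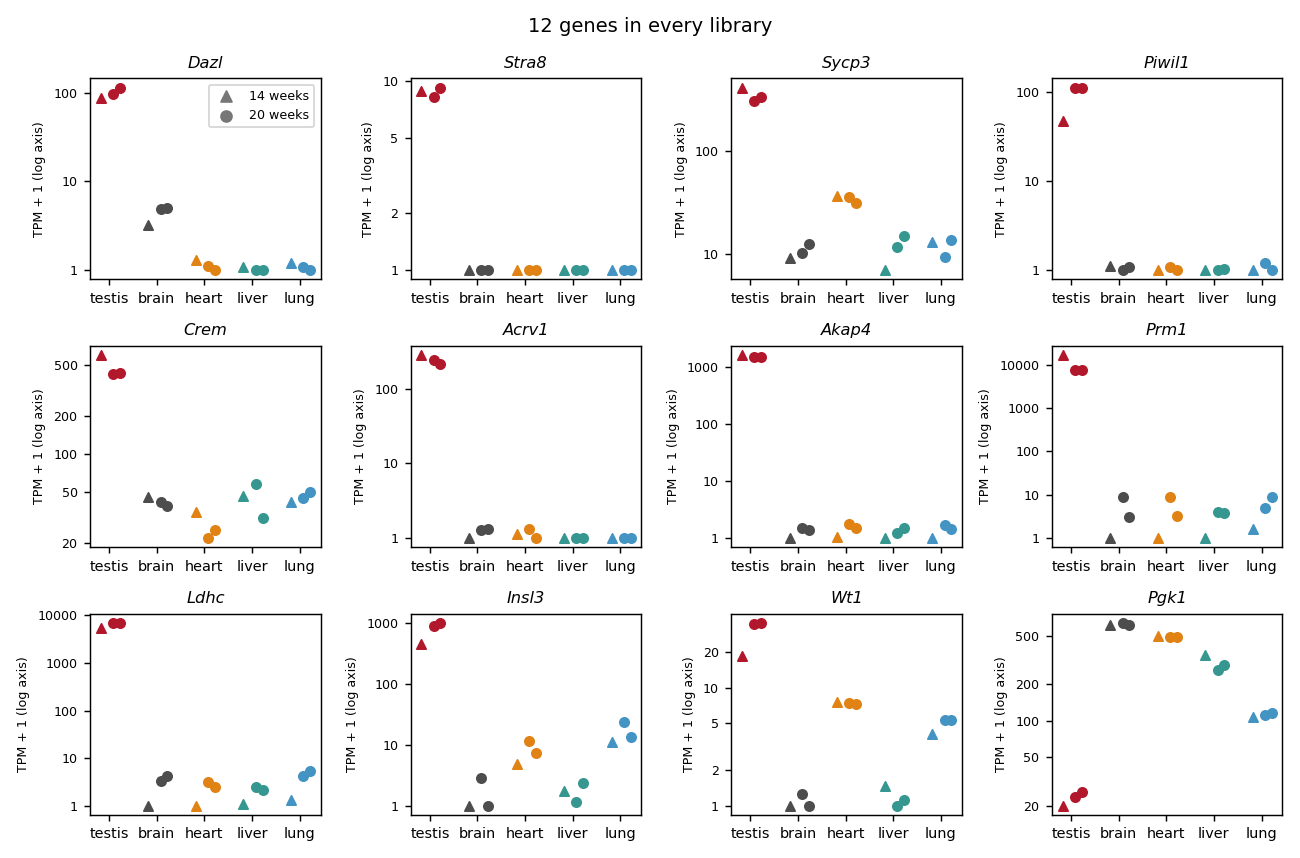
Level as TPM + 1 (log axis) of 12 genes, with testis libraries at the left and the other tissues after them; triangles are the 14-week libraries and circles the 20-week ones. All but Pgk1 are highest in testis, with Prm1 at 16285, 7589 and 7379 TPM, while Pgk1, at 19.0 to 24.8 TPM, is lowest in testis.

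All 10 tested genes of sperm energy metabolism were higher and above each tissue, with a median of 8.22. Ldhc, the lactate dehydrogenase of sperm, stood at 5575, 6815 and 6898 TPM in testis and at 0 to 4.28 TPM (median 1.46) elsewhere, a difference of 11.48 ± 0.48 (adjusted p = 2.73e-11). Several such enzymes are autosomal copies of genes on the X chromosome, which is silenced in male meiosis. Of 10 copies listed, 9 were higher in testis and 1 did not pass; of their 10 X-linked parents, 9 were lower, 8 of them below each tissue, and 1 was higher, with medians of 5.79 and -1.98. Pgk2, the copy of phosphoglycerate kinase, stood at 1226, 1276 and 1291 TPM in testis and at 0 to 1.14 TPM (median 0.231) elsewhere, while the parent Pgk1 stood at 19.0, 22.5 and 24.8 TPM in testis and at 106 to 630.5 TPM (median 416) elsewhere. The parent and the copy thus traded places in every testis library, with differences of 9.92 ± 0.24 for Pgk2 and -3.78 ± 0.11 for Pgk1 (adjusted p = 6.18e-14 and 2.94e-13). Pdha1, a subunit of pyruvate dehydrogenase, fell to 6.57, 8.80 and 8.69 TPM in testis against 86.2 to 1115 TPM (median 228) elsewhere, while its copy Pdha2 reached 128, 159.9 and 151 TPM. The exception was Cstf2, a factor of mRNA end formation, which was higher in testis by 1.35 ± 0.17 (adjusted p = 4.76e-06), with its copy Cstf2t not passing at -0.22 ± 0.18 (adjusted p = 0.270). Rpl10l, Rpl39l, G6pd2 and Zfa resemble their parents closely, so how reads were divided between them is uncertain. Over all 737 tested X-linked genes, 35.7% were higher and 55.1% lower, with a median of -0.71, beside 32.9% and 47.8% of 17701 autosomal genes with a median of -0.40. Above each tissue stood 28.4% of the X-linked and 20.7% of the autosomal genes, and below each 20.8% and 12.6%.

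Among somatic cells of the testis, Sertoli genes were mixed and most Leydig genes were higher. Of 13 Sertoli genes, 8 were higher, 1 was lower and 4 did not pass, with a median of 1.19; with equal quantiles 3 were lower. Wt1, a transcription factor of Sertoli cells, stood at 17.6, 33.8 and 34.3 TPM in testis and at 0 to 6.54 TPM (median 1.76) elsewhere, a difference of 3.44 ± 0.20 (adjusted p = 9.61e-10). Shbg, which encodes the androgen-binding protein, stood at 5.44, 4.62 and 6.40 TPM in testis and at no more than 0.210 TPM elsewhere, and Clu, abundant in Sertoli cells but also in liver and brain, did not pass (adjusted p = 0.135). Of 10 Leydig genes, 9 were higher, all 9 above each tissue, with a median of 5.35. Hsd17b3, the last enzyme of testosterone synthesis, stood at 31.7, 36.0 and 31.7 TPM and was listed at 0 elsewhere. Cyp11a1, the first enzyme of steroid synthesis, stood at 75.2, 80.8 and 78.4 TPM in testis and at 0 to 3.74 TPM (median 0.217) elsewhere, a difference of 5.62 ± 0.15 (adjusted p = 1.30e-13). Insl3, a Leydig hormone that guides testis descent, stood at 449, 891 and 993 TPM in testis and at 0 to 23.0 TPM (median 2.81) elsewhere. The remaining member, Fdx1, supplies electrons to these enzymes in many tissues and did not pass (adjusted p = 0.510).

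Most genes of blood vessels and immune cells were lower than the mean of the other tissues. Below each tissue singly stood 3 of 8 peritubular and vascular genes and 4 of 7 macrophage genes. The peritubular and vascular genes summed to 66.1, 118 and 60.5 TPM in testis. Their sums had means of 62.4 TPM in brain, 63.3 TPM in liver, 1165 TPM in heart and 1799 TPM in lung. Of 8 peritubular and vascular genes, 5 were lower and 3 did not pass; endothelial Pecam1 stood at 1.65, 2.06 and 2.21 TPM in testis and at 11.5 to 652 TPM (median 69.8) elsewhere, a difference of -4.51 ± 0.14 (adjusted p = 1.19e-12), whereas Acta2 of smooth muscle and myoid cells did not pass (adjusted p = 0.892). All 7 macrophage genes were lower, with a median of -2.76. All 5 red blood cell genes were lower with a median of -4.83, and their levels summed to 233, 54.6 and 109.6 TPM in testis, against 668 to 25449 TPM elsewhere; the globin genes of each cluster are near-identical copies. All 7 brain genes and all 6 each for heart, liver and lung were lower, and none was below each tissue singly. In testis the liver genes summed to 2.07, 30.7 and 32.9 TPM and the lung genes to 0.998, 8.34 and 13.0 TPM. The brain genes summed to 11.9, 10.5 and 8.52 TPM and the heart genes to 49.9, 65.5 and 74.0 TPM. The source of these low levels was not tested. Epididymal genes were present in testis libraries at uneven levels. The 10 listed ones, tested or not, summed to 74.3, 372 and 10.6 TPM, with Spink8 at 28.0, 155 and 2.55 TPM. The 4 that were tested all passed as higher in testis. The part of epididymal tissue in other results was not tested. The call for 1 of the 4 tested genes, Ros1, was lost without 20-week testis library 2.

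Among single genes by size, after Tnp1, Prm2, Prm1, Ldhc and Tnp2, the largest differences were those of Crisp2, a cysteine-rich sperm protein, at 5065, 5354 and 5725 TPM in testis and 0 to 4.88 TPM (median 1.000) elsewhere, and of Cmtm2a, Fabp9, Hist1h2ba and Dbil5. The largest falls were in genes that several other tissues held high. Trf, the iron carrier transferrin, fell to 6.09, 20.4 and 16.1 TPM in testis against 88.5 to 22664 TPM (median 566) elsewhere, a difference of -6.05 ± 0.24 (adjusted p = 1.30e-11). Vegfa, the vascular growth factor, fell to 2.63, 5.16 and 2.04 TPM in testis against 65.7 to 1034 TPM (median 222) elsewhere, a difference of -5.67 ± 0.22 (adjusted p = 8.75e-12). Ndrg2, a stress-responsive gene, fell to 7.41, 12.7 and 12.0 TPM in testis against 63.2 to 1122 TPM (median 767) elsewhere, a difference of -5.35 ± 0.16 (adjusted p = 7.27e-13). The rule that named these 3 by size required that no testis library overlap the others. The other named falls, of Hspb8, Hsd11b1, Fgf1, Tspan7, Car8, Vtn and Hbb-b2, lay between -5.78 and -5.19.

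RNA-binding proteins linked to circRNA formation or decay were mixed: of 12, 3 were higher, 7 lower and 2 did not pass. Mbnl1 and Mbnl2, muscleblind splicing factors, fell to 12.0, 13.7 and 16.7 TPM and to 14.4, 17.0 and 21.3 TPM in testis against 44.5 to 243 TPM (median 103) and 33.5 to 339 TPM (median 213) elsewhere, with differences of -2.83 ± 0.13 and -3.05 ± 0.16 (adjusted p = 1.11e-10 and 3.39e-10). Adar, which edits double-stranded RNA, fell to 3.81, 5.56 and 6.61 TPM in testis against 9.87 to 101 TPM (median 39.1) elsewhere (difference -2.65 ± 0.25, adjusted p = 2.46e-07). Dis3, a nuclease of the exosome, was higher, at 52.6, 51.7 and 48.3 TPM in testis and 5.52 to 16.1 TPM (median 12.9) elsewhere (difference 2.10 ± 0.17, adjusted p = 3.43e-08). Adar, Mbnl1 and Mbnl2 were below each tissue and Dis3 above each.

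The circRNA table gives RPM, reads across a junction scaled to a total that no source used here names. Its values are whole multiples of each library's smallest value, so reads could be recovered: 23286, 5606 and 6053 in testis and 1231 to 21432 elsewhere. Intervals and floors from them cover counting error only. Summed circRNA abundance was 16727, 6349 and 6973 RPM in testis. It was 25200.0 to 30723 RPM in brain, 3308 to 4020 RPM in heart, 1287 to 1589 RPM in liver and 3971 to 4539 RPM in lung. Testis thus lay below brain and above heart, liver and lung in every library. The difference of mean log2 totals between testis and the other 12 was 0.87, with a two-sided p of 0.4 by an exact permutation test over 455 splits, whose smallest possible p is 0.0022. It was 0.44 (p = 0.711) with the 20-week libraries alone, an exact test over 45 splits that cannot go below 0.0222.

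The testis libraries held 7102, 2943 and 3093 different circRNAs, beside 816 to 7445 in the other libraries, a difference of 1.03 in mean log2 number (exact permutation p = 0.165). Thinned to 1231 reads each, the testis libraries held 934, 918 and 913, against 912 to 959 in brain, 784 to 859.7 in heart, 807 to 842 in liver and 888 to 927 in lung. At equal depth the testis libraries therefore lay above those of heart and liver and within the range of brain, and the difference was 0.09 (exact permutation p = 0.132). In all, 8924 circRNAs from 3116 host genes had a read in testis, and 4094 of them had none in the other 12 libraries; these took 35.4% of 34945 testis reads. Of the 8924, 1035 were seen in all 3 testis libraries, 335 of these in no other library. The 10 most abundant circRNAs took 6.91% to 8.22% of the reads of a testis library. Genes at 1 TPM or more numbered 14962, 15605 and 15571 in testis and 11728 to 15599 elsewhere, a difference in means of 1278 (exact permutation p = 0.185).

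**Figure D3:**
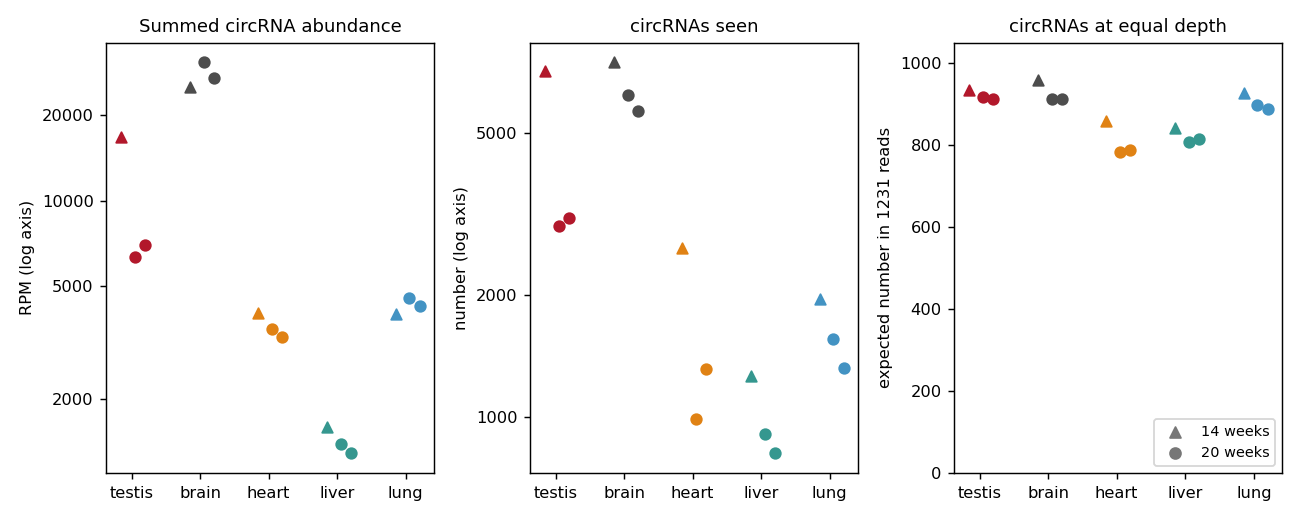
Summed circRNA abundance in RPM, number of circRNAs, and number after thinning each library to 1231 reads, for testis at the left and the other 4 tissues after it; triangles are the 14-week libraries and circles the 20-week ones. The 14-week testis library stands at 16727 RPM, above 6349 and 6973 RPM at 20 weeks, whereas its thinned number, 934, is near 918 and 913.

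Of 847 circRNAs with at least 20 reads over the 15 libraries, 211 were higher in testis than the mean of the other tissues (24.9%) and 181 lower (21.4%), on the log2(RPM + 1.18) scale, where 1.18 RPM is the median worth of 1 read. Testis stood above each tissue for 117 (13.8%) and below each for 2 (0.236%), and values did not overlap for 98 higher (11.6%) and 4 lower (0.472%). The read floor counts testis reads, so circRNAs rare elsewhere, such as those of Scaper, Stk31 and Dnahc8, were tested only because they were high in testis. Counts of higher circRNAs, and the adjusted p of such members, are set in part by this floor. The split between higher and lower moved with the scaling. The 14-week testis library carried more circRNA in RPM than the 20-week ones, and the part of that excess in the split was not tested. The higher share was 53.8% of calls as deposited, 38.7% with library medians set equal (175 higher, 277 lower) and 84.4% by edgeR with TMM on the recovered reads (249 and 46). Without the 14-week testis library, and with the read floor applied again to the other libraries, 642 circRNAs were tested. Of these, 65 were higher and 26 stood above each tissue, so both the library and the set tested had changed. Without 20-week testis library 1 or 2, or without 20-week liver library 1, 1 circRNA was below each tissue, and 4 were without 20-week lung library 2. Against single tissues, 126 circRNAs were higher and 456 lower than in brain, 235 and 35 than in heart, 292 and 14 than in liver, and 216 and 56 than in lung.

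The 6 back-splice junctions below serve as examples of a circRNA with its own rise, of germ-cell hosts whose circRNAs were testis-bound, and of a host whose circRNA fell behind it. Each line gives the last 30 bases of the circle's last exon in lower case and the first 30 of its first exon in capitals, from GENCODE M21 transcripts whose exon lengths and spacing equalled those of the deposited circRNA; the coordinates are the files' own (mm9).
Scaper, chr9:55654820-55664616, minus strand: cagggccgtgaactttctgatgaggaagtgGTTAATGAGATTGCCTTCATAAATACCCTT
Stk31, chr6:49375695-49407777, plus strand: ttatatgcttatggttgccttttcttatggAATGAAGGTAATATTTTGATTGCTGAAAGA
Sycp1, chr3:102644785-102657421, minus strand: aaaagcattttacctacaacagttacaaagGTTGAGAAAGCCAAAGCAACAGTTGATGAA
Adam5, chr8:25892038-25916998, minus strand: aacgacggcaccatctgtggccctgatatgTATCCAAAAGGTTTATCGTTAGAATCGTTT
Gtsf1, chr15:103250389-103255962, minus strand: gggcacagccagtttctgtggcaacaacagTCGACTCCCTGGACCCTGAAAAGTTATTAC
Cdyl, chr13:35907778-35908444, plus strand: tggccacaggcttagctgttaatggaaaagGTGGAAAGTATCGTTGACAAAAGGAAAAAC
These circles held exons 15 to 19 of 31 in Scaper, 11 to 22 of 24 in Stk31, 26 to 30 of 33 in Sycp1, 11 to 16 of 21 in Adam5, 3 to 6 of 9 in Gtsf1 and exon 5 of 10 in Cdyl. Their spliced lengths were 642, 1470, 516, 921, 376 and 667 bases.

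The largest difference was that of the Scaper circRNA, from a gene for a cyclin A-associated protein of the endoplasmic reticulum, which stood at 183, 83.8 and 70.3 RPM in testis and at 0 to 2.35 RPM (median 0) elsewhere. It had 390 reads in testis and 6 in the 12 others, and its difference was 5.98 ± 0.41 (adjusted p = 3.29e-08). The circRNA with the most testis reads came from Bbs9, a subunit of the BBSome that carries proteins into cilia (chr9:22448189-22483508), at 287, 40.8 and 31.1 RPM in testis and 0 to 29.4 RPM (median 0.384) elsewhere. Both were also named by size, which required every testis library to lie above every other library. For Bbs9 the 14-week library was far above the 20-week ones, in which its circRNA stood below those of Scaper and Usp32. The Bbs9 difference was 4.87 ± 0.60 (adjusted p = 1.25e-05). The Usp32 circRNA (chr11:84890767-84917528), from a ubiquitin protease gene, stood at 127, 57.8 and 53.0 RPM in testis and at 0 to 21.1 RPM (median 0.375) elsewhere, a difference of 4.83 ± 0.42 (adjusted p = 3.96e-07). Next came circRNAs of Spag16 (4.55 ± 0.40), another of Bbs9 (4.47 ± 0.40), Stk31 (4.42 ± 0.28), Tbc1d19 (4.25 ± 0.42) and Pde1c (4.23 ± 0.28), named by the same rule of no overlap. Ep400 and Oxr1 completed the 5 circRNAs with the most testis reads, with differences of 3.82 ± 0.50 and 3.65 ± 0.62 (adjusted p = 2.64e-05 and 0.000277).

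Several germ-cell genes produced circRNAs that were rare or unseen elsewhere. The Sycp1 circRNA stood at 62.5, 18.1 and 21.9 RPM in testis and at 0 to 3.53 RPM (median 0) elsewhere, a difference of 4.21 ± 0.47 (adjusted p = 4.35e-06). The Stk31 circRNA, from a germ-cell kinase gene with a Tudor domain, stood at 33.0, 26.0 and 20.7 RPM in testis and at 0 to 1.85 RPM (median 0) elsewhere (adjusted p = 1.32e-08). The Dnahc8 circRNA stood at 43.8, 13.6 and 5.76 RPM in testis and had no read in the 12 others. With a floor of 3 reads over those 12, it was at least 79.1-fold higher in the 3 testis libraries pooled. The Adam5 circRNA stood at 17.2, 9.06 and 9.22 RPM and that of Gtsf1 at 14.4, 3.40 and 3.46 RPM. By the same floor and pooling they were at least 40.6-fold and 26.4-fold higher. Limma's adjusted p for Dnahc8, Adam5 and Gtsf1 was 9.91e-07, 5.83e-09 and 4.55e-06. The 14-week library gave 61 of 78 testis reads for Dnahc8, 24 of 40 for Adam5 and 20 of 26 for Gtsf1. These folds are therefore not lower bounds for the 20-week libraries. The Boll circRNA, from a relative of Dazl, stood at 12.2, 9.06 and 5.76 RPM in testis with a difference of 2.89 ± 0.29 (adjusted p = 1.20e-06). All of them were present in each testis library. They reached the floor of 20 reads only through testis, so their adjusted p is set in part by that floor. The Tbpl1 circRNA, from a TATA-binding-protein relative of spermatids, passed narrowly at 1.26 ± 0.47 (adjusted p = 0.0414) and did not pass without the 14-week testis library (0.80, adjusted p = 0.24). It was not rare elsewhere, with means of 6.51 RPM in testis and 8.88 RPM in brain. Its call was also lost with a smaller or larger constant and with library totals or medians set equal.

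Counted by host over all circRNAs, Bbs9 had 718 reads in testis and 109 elsewhere, Scaper 559 and 29, Spag16 183 and 8, Dnahc8 154 and 0, Sycp1 133 and 7, and Stk31 107 and 1. Rnf17 and Ddx4 of the piRNA pathway had 49 and 32 testis reads and 0 elsewhere, and Crem had 45 and 2. The table listed no circRNA for Dazl, Sycp3, Stag3, Brdt or Sry. By list, axoneme genes gave 445 testis reads from 11 hosts, synaptonemal genes 180 from 4, piRNA genes 176 from 11 and acrosome genes 173 from 10. The most highly expressed lists gave almost none: 2 reads from 1 host of 11 chromatin packaging genes, 2 from 1 of 15 fibrous sheath genes, and 0 from the energy metabolism genes. Of 2770 genes above each tissue with a testis mean of 20 TPM or more, 723 (26.1%) had a circRNA read in testis, beside 1191 of 3801 (31.3%) other genes at that level. Of 303 genes at 500 TPM or more, 49 (16.2%) had one.

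Among falling circRNAs, that of Nfix, a nuclear factor I gene, stood at 4.31, 3.40 and 1.15 RPM in testis and at 10.5 to 81.1 RPM (median 27.5) elsewhere, a difference of -2.88 ± 0.29 (adjusted p = 1.51e-06). That of Asph, an aspartyl hydroxylase gene, stood at 3.59, 0 and 1.15 RPM in testis and at 4.70 to 66.7 RPM (median 14.8) elsewhere, a difference of -2.93 ± 0.62 (adjusted p = 0.00151). These were the 2 circRNAs below each tissue, and the Asph values of testis lay just under the lowest of the others. Tlk1 (-2.23 ± 0.55) and Arhgap12 (-1.90 ± 0.32) were also named for the size of their fall, by a rule that required no overlap. Of circRNAs known from many tissues, that of Hipk3, a kinase gene, stood at 7.18, 1.13 and 4.61 RPM in testis and at 1.92 to 128 RPM (median 6.67) elsewhere, a difference of -1.60 ± 0.42 (adjusted p = 0.00635), but did not pass without 20-week testis library 1 (adjusted p = 0.0623). The Slc8a1 circRNA, from the sodium-calcium exchanger gene of heart and brain, was lower by limma (-2.52 ± 0.45, adjusted p = 0.000393) but not by edgeR (adjusted p = 1). A Ttn circRNA, from the giant sarcomere protein titin, had no read in testis, brain, liver or lung and a mean of 73.9 RPM in heart. By the floor of 3 reads it was at least 17.5-fold lower than the other libraries pooled, through heart alone. EdgeR again did not call it (adjusted p = 1). Tulp4 and Zfp609 circRNAs did not pass, with -0.23 ± 0.37 and -0.30 ± 0.55 (adjusted p = 0.633 and 0.686). The Gfra1 circRNA fell by 0.92 on the log2 scale (adjusted p = 0.0224) but not without either 20-week testis library. It was not called by edgeR (adjusted p = 0.9997).

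Setting each circRNA against its host gene, as log2(RPM + 1.18) minus log2(host TPM + 1), showed 201 of 830 ratios higher in testis (24.2%) and 165 lower (19.9%). Above each tissue stood 38 (4.58%) and below each 61 (7.35%), and the values did not overlap for 55 higher (6.63%) and 66 lower (7.95%). Without the 14-week testis library, and with the read floor applied again, 77 of 631 ratios were higher. Of the 211 circRNAs higher in testis, 201 had a tested host: 149 hosts were higher too, 26 were lower and 26 did not pass, and the ratio was higher for 83 and lower for 47. Of the 181 lower ones, 175 had a tested host, of which 132 were lower and 22 higher. The circRNAs higher in testis had a median of 5 exons over a span of 16251 bases, beside 3 exons and 7455 bases for the lower ones and 4 exons and 11518 bases for all 847.

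Of the 6 circRNAs with the highest ratios, 4 had hosts that were lower in testis, 1 a host that did not pass and 1, Scaper, a host that was higher. The Daam1 circRNA (chr12:73072081-73090827), from a formin gene, stood at 19.4, 19.3 and 10.4 RPM in testis and had no read elsewhere. By the floor of 3 reads it was at least 53.7-fold higher in the 3 testis libraries pooled. Its host stood at 17.4, 20.3 and 21.2 TPM in testis and at 15.9 to 63.7 TPM (median 47.0) elsewhere, and the ratio differed by 4.86 ± 0.34 (adjusted p = 7.83e-09). The circRNA was thus higher in all 3 testis libraries. The host differed by -1.01 ± 0.14 from the mean of the other tissues. Against liver the host differed by -0.13 and did not pass (adjusted p = 0.546). For Antxr2, an anthrax toxin receptor gene, the circRNA stood at 15.8, 12.5 and 31.1 RPM in testis and at 0 to 0.960 RPM (median 0) elsewhere, and the ratio differed by 4.78 ± 0.37 with a host difference of -0.86 ± 0.12. For Rtn4, the gene of the neurite growth inhibitor Nogo, the ratio differed by 4.49 ± 0.49 and the host by -1.99 ± 0.23. The Rtn4 circRNA was also present in brain, at a mean of 17.9 RPM, beside 33.8, 6.80 and 9.22 RPM in testis. It did not pass against brain (limma's adjusted p = 0.523), nor did the host against liver (adjusted p = 0.187). Oxr1, an oxidation resistance gene, was not among these 6 and was named for its testis reads. Its ratio differed by 3.63 ± 0.59 while its host did not pass (0.02 ± 0.13, adjusted p = 0.905). For Scaper the ratio differed by 4.24 ± 0.44 (adjusted p = 1.05e-06), with the host at 90.1, 72.0 and 72.9 TPM in testis and 5.07 to 59.7 TPM (median 27.7) elsewhere. Nbea and Gbe1 had ratio differences of 3.64 ± 0.45 and 3.63 ± 0.54, and the Nbea host was the 1 that did not pass (-0.21 ± 0.15, adjusted p = 0.209). The Gbe1 log2 ratio was 0.52 in the 14-week testis library and -2.18 and -3.35 in the 20-week ones, and its difference was 2.54 over the same circRNAs without the 14-week library. Gbe1 and Daam1 circRNAs had no read elsewhere, so the added 1.18 RPM sets that side of their ratios. Both, and those of Scaper, Antxr2 and Nbea, reached the read floor only through testis. The Bbs9 ratio did not pass (1.06 ± 0.49, adjusted p = 0.0895), as its host also rose, by 3.81 ± 0.22.

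Several of the lowest ratios belonged to hosts that rose far more than their circRNAs. The Gtsf1 ratio differed by -6.66 ± 0.35, the Adam5 ratio by -5.77 ± 0.26, the Boll ratio by -4.95 ± 0.50 and the Dnahc8 ratio by -3.65 ± 0.60 (adjusted p = 3.49e-10, 9.29e-11, 6.23e-07 and 0.000114), although all 4 circRNAs were higher in testis. Because these circRNAs are at or near 0 elsewhere, the added 1.18 RPM sets much of their ratio there; with the constant lowered 5-fold the Dnahc8 ratio no longer passed (adjusted p = 0.146). The Dnahc8 log2 ratio was -1.35 in the 14-week testis library and -4.92 and -6.09 in the 20-week ones, and its difference was -5.04 over the same circRNAs without the 14-week library. Cdyl was clear of that limit. Its circRNA stood at 7.90, 3.40 and 8.06 RPM in testis and at 2.09 to 150.2 RPM (median 8.33) elsewhere, while the host, which encodes a chromodomain protein of spermatid chromatin, stood at 143, 159.6 and 153 TPM in testis and at 2.44 to 57.3 TPM (median 9.87) elsewhere. The ratio differed by -4.70 ± 0.40 (adjusted p = 1.01e-07), with every testis library below the others, whereas the fall of the circRNA itself (-0.95 ± 0.37, adjusted p = 0.0471) was lost in most other settings. Tmem56 and Ube2k had ratio differences of -5.42 ± 0.62 and -3.31 ± 0.43. The Ndst3 and Rims2 circRNAs had reads in brain alone, at means of 37.2 and 34.6 RPM, and none in testis, heart, liver or lung, so their ratios of -3.79 ± 0.23 and -3.60 ± 0.25 rest on the added constant.

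**Figure D4:**
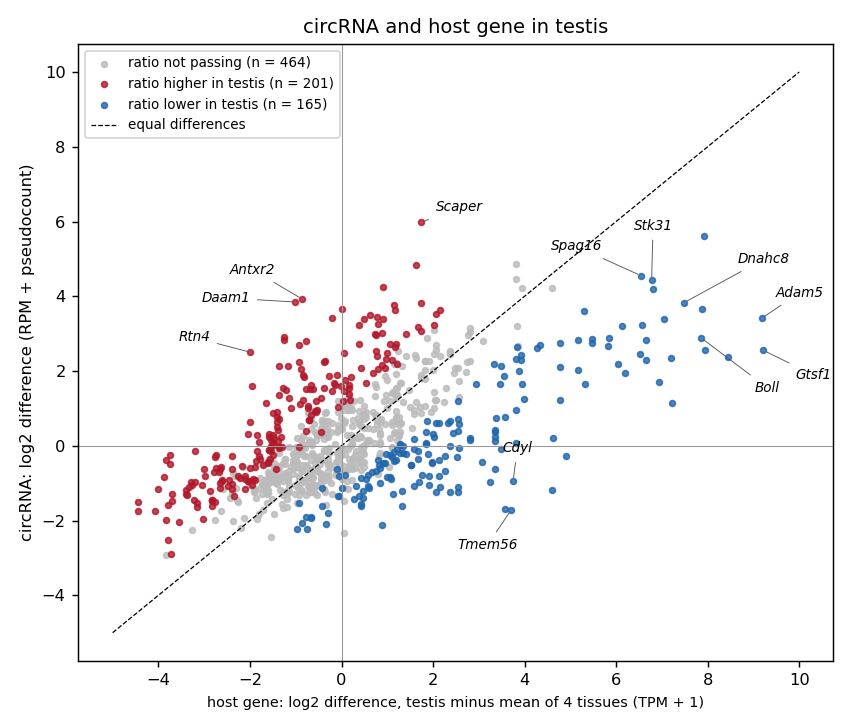
Difference of each circRNA (vertical axis, log2 of RPM + 1.18) against that of its host gene (horizontal axis, log2 of TPM + 1), both testis minus the mean of the other 4 tissues, for 830 circRNAs. The ratio was higher in testis for 201 (red) and lower for 165 (blue), and did not pass for 464 (grey).

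The 14-week testis library was then compared with the 20-week ones. As 1 library stands for the younger age, it is assumed to vary like the others, and age, library and batch cannot be told apart. The departure here is the difference between 14- and 20-week testis beyond the mean age difference of the other 4 tissues. It passed upward for 137 genes (0.722%), called higher below, and downward for 701 (3.7%), called lower. An upward departure need not be a rise in testis itself. The median over all genes was -0.28. This split depended on scaling: with equal medians 827 were higher and 110 lower (median 0.24), and with equal quantiles 165 and 142 (median 0.01). With no allowance for age in the other tissues, 120 were higher and 351 lower, of which 103 and 286 were shared. Leaving out 20-week testis library 1 or 2 left 5 or 3 higher and 87 or 41 lower. Without the 14-week brain library 280 were higher and 1990 lower, without the 14-week heart library 89 were higher, without 20-week heart library 2 91 were higher, and without 20-week lung library 2 467 were lower. The correlation of log2 levels across genes was 0.975 and 0.973 between the 14-week and the 20-week testis libraries and 0.989 between the 20-week ones, over 18966 genes that are not independent; the 14-week brain library stood further from its own, at 0.950 and 0.950.

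The genes with the largest departures upward at 14 weeks included several of spermatids. Tmem89, a membrane protein gene, stood at 151 TPM at 14 weeks and at 26.0 and 17.9 TPM at 20 weeks in testis, and was listed at 0 elsewhere. Its departure was 2.75 ± 0.20 (adjusted p = 0.000125) and passed under every scaling. H1fnt, a linker histone of spermatids, stood at 496, 309 and 290.4 TPM in testis with a departure of 2.68 ± 0.36 (adjusted p = 0.00427), but at 0.72 (adjusted p = 0.909) with no allowance for age in the other tissues. Znrf4 and Pfn3 departed by 2.07 ± 0.28 and 2.08 ± 0.36, but did not pass with 0.1 TPM added (adjusted p = 0.215 and 0.579), nor did Pfn3 with equal quantiles (adjusted p = 0.123). Prm1 departed by 3.28 ± 0.71 (adjusted p = 0.0282) and Tnp2 by 2.41 ± 0.58 (adjusted p = 0.0436); without that allowance they were at 1.12 and -0.02 and did not pass (adjusted p = 0.847 and 1.00). The Prm1 departure also did not pass without either 20-week testis library. Of the 11 chromatin packaging genes, 4 departed upward and 1, Chd5, downward; with equal medians 6 and 0 did and with equal quantiles 2 and 0. In the other tissues the same genes summed to 0.631 to 49.9 TPM at 14 weeks and to 12.2 to 69.9 TPM at 20 weeks, at most 0.172% of the 20-week testis sum, and Tnp1 was listed at 0 in the 4 libraries of 14 weeks and at 1.22 to 14.7 TPM in those of 20 weeks. Whether this low level has a part in those departures was not tested.

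Among genes lower at 14 weeks, Wnk1, a kinase that regulates ion transport, stood at 49.9, 214 and 231 TPM in testis, a departure of -2.69 ± 0.25 (adjusted p = 0.000604). Ccdc107, a coiled-coil protein gene, stood at 21.1, 188 and 177 TPM in testis, a departure of -2.78 ± 0.33 (adjusted p = 0.00196). Ppp2r5d, a regulatory subunit of protein phosphatase PP2A, stood at 12.5, 62.1 and 55.8 TPM in testis, a departure of -2.26 ± 0.20 (adjusted p = 0.000278). In each the 14-week library was the low one and the 20-week libraries were close together. Cyfip1, Atp2b4 and Sema6c departed by -2.66 ± 0.39, -2.53 ± 0.28 and -2.27 ± 0.41; Cyfip1 did not pass without 20-week testis library 2 (adjusted p = 0.0501), nor Sema6c without either of them or with equal quantiles (adjusted p = 0.0571). Atp2b4 was at -1.63 with no allowance for age in the other tissues and did not pass (adjusted p = 0.202). Of the axoneme genes, 5 were lower at 14 weeks: Dnahc8 (-1.88 ± 0.22, adjusted p = 0.00191), Dnahc1, Dnahc2, Dnahc17 and Hydin, all of them long. With equal medians 3 and with equal quantiles 2 axoneme genes passed. Piwil1 departed by -1.20 ± 0.19 (adjusted p = 0.00891) and Nr5a1, the steroidogenic regulator of Leydig and Sertoli cells, by -1.76 ± 0.18 (adjusted p = 0.000781); with equal medians Piwil1 was at -0.67 and did not pass (adjusted p = 0.125).

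Transcript length moved with the departure. The median longest annotated transcript was 945.5 bases among the genes departing upward, 4341 bases among those departing downward and 3041 bases over all tested genes. In testis the median difference of the 14-week library from the 20-week mean was 0.03 for 1541 genes under 1000 bases and -0.38 for 933 genes of 8000 bases or more. For the same genes it ended at 0.21 in heart, 0.13 in liver, 0.05 in lung and -0.14 in brain. Of the genes of 8000 bases or more, 0 departed upward and 127 downward, and of those under 1000 bases 72 upward and 31 downward. The part of RNA length or integrity in the departures was not tested.

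**Figure D5:**
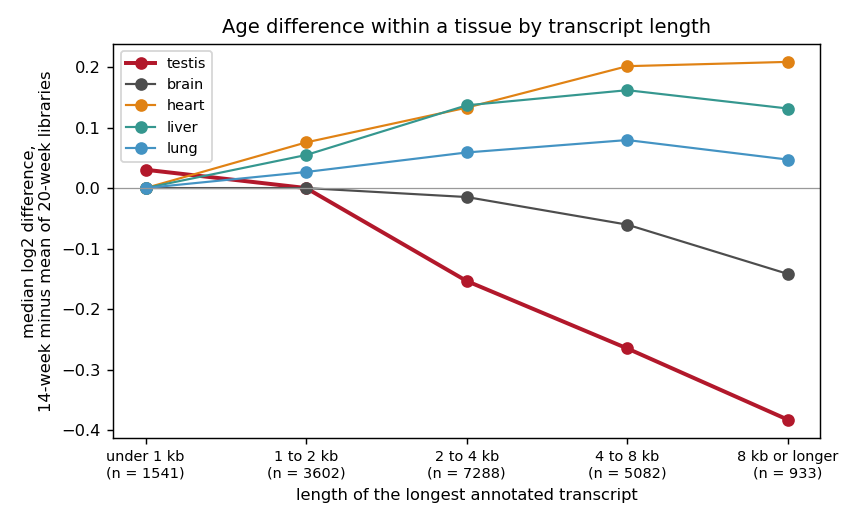
Median difference in log2(TPM + 1) of the 14-week library from the mean of the 20-week libraries by class of transcript length, for testis and for each of the other 4 tissues. The testis line falls to -0.38 at 8000 bases or more, while the lines of the other tissues end between -0.14 and 0.21.

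For circRNAs the 14-week testis library had the higher total. Its summed abundance was 2.51 times the mean of the 20-week testis libraries, while the same ratio was 0.874 in brain, 1.18 in heart, 1.19 in liver and 0.903 in lung, and its recovered reads were 3.99 times theirs. It held 2067 circRNAs absent from the other 14, 896 of them by a single read. Thinned to equal reads, the ratio of numbers was 1.02. The departure passed for 45 of 847 circRNAs, all higher at 14 weeks (5.31%), and 0 lower (0.0%), with a median of 0.75. This split is set in part by the read floor, which counts the 14-week testis library: only 8 of the 45 reached 20 reads in the other 14 libraries. Fitted over the 642 circRNAs that did, limma called 0 higher and 0 lower, beside 58 and 4 at an unadjusted p under 0.05. Over all 847, with library totals set equal 6 were higher and 2 lower (median -0.03), with equal medians 0 passed, and edgeR called 0. At an unadjusted p under 0.05, limma counted 155 higher and 3 lower as deposited, and 34 and 15 with equal medians. EdgeR counted 113 and 0 with the implied library size, and 10 and 18 with TMM. Leaving out either 20-week testis library gave 4 lower, and leaving out the 14-week liver library 1.

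None of the 6 circRNAs named here reached 20 reads outside the 14-week testis library. The Gbe1 circRNA, from the gene of the glycogen branching enzyme, stood at 40.2, 3.40 and 1.15 RPM in testis and had no read elsewhere, a departure of 3.67 ± 0.32 (adjusted p = 6.07e-05). The Dennd1b circRNA, from a gene of vesicle transport, stood at 13.6, 0 and 1.15 RPM in testis, a departure of 3.16 ± 0.30 (adjusted p = 9.86e-05). The Fam172a circRNA stood at 29.5, 2.27 and 0 RPM in testis, a departure of 3.70 ± 0.69 (adjusted p = 0.0110). All 3 were carried by the 14-week library, with 3 RPM or less in each of the 20-week ones for Dennd1b and Fam172a. Eefsec, Ccdc7 and Cnot6l circRNAs departed by 3.40 ± 0.66, 2.81 ± 0.47 and 2.71 ± 0.69. With library medians set equal none of the 6 passed, with adjusted p from 0.0933 to 0.664, and none did by edgeR, from 0.171 to 1. Ratios to host departed for 23 of 830, all higher at 14 weeks (2.77%), and for 0 lower (0.0%), beside 180 and 2 at an unadjusted p under 0.05 by limma; 9 of the 23 reached the floor outside that library. Reads of X-linked circRNAs took 0.696%, 0.838% and 0.826% of circRNA reads in testis, with 95% Clopper-Pearson intervals of 0.593% to 0.811%, 0.617% to 1.11% and 0.614% to 1.09%, and 0.802% to 1.62% in the other libraries.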

How the data were processed

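The authors deposited gene levels as TPM and circRNA levels as RPM, with circRNA exon blocks in mm9. Per the submitters' processing notes, CASAVA 1.8.2, TopHat2 2.0.6 and Cufflinks 2.2.1 were used; the circRNA caller, the RPM denominator and the strand setting are not given in the sources used here. TPM keeps no depth, so the depth behind gene values is unknown, and reads of antisense partners cannot be told apart. The deposited RPM values were whole multiples of 1 read in 100% of cases, within 0.1 of a read. The 15 libraries were grouped by tissue and age from the labels; 13 other sample columns and the rat files were not analysed here.

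Genes of at least 1 TPM in 3 libraries, from 24601 genes, and circRNAs of at least 20 reads, from 28482, were fitted with limma 3.58.1 (R 4.3.3) on log2(TPM + 1) and log2(RPM + 1.18) with tissue means, a trended prior and Benjamini-Hochberg adjustment over all features, two-sided at 0.05. The planned count model did not apply to RPM as deposited, so edgeR 4.0.16 on the recovered reads was an alternative, beside other constants, filters, scalings, a 2-group fit, replicate blocks and each library left out. Calls above or below each tissue needed all 4 single contrasts. The departure of the 14-week testis used an age term plus an interaction. Library totals had exact permutation tests. The scripts were tested on simulated data.

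Members and gene lists were chosen with earlier results of these data known. Named genes were the 10 largest differences each way with 20 TPM in the higher group and no overlap, and up to 4 members of each list by smallest p; circRNAs were the 8 largest each way with at least 10 times the constant, one per listed host or list, the 6 largest ratios each way with 50 reads, the 6 largest departures and the 5 with the most testis reads. Other members, chiefly those that did not pass or went against their list, were named after their values were seen. Gene models without a gene name are counted and not named. Chromosomes and exons came from GENCODE M21 and promoters from RefSeq.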

Additional observations from a re-analysis of the deposited data

Results flagged for a closer look

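Each result here was singled out by its departure, the age difference in testis beyond the mean age difference of the other 4 tissues. The test was limma's interaction term with Benjamini-Hochberg adjustment. It rests on 1 library of 14 weeks. None of the circRNAs named here reached 20 reads outside that library. By count these were 137 genes departing upward, 701 genes downward and 45 circRNAs upward. Among genes departing upward the departures on the log2(TPM + 1) scale were 3.28 for Prm1, 2.75 for Tmem89, 2.68 for H1fnt, 2.41 for Tnp2, 2.08 for Pfn3 and 2.07 for Znrf4. Of these, Prm1, H1fnt and Tnp2 did not pass with no allowance for age in the other tissues, at 1.12, 0.72 and -0.0179. Among genes departing downward the departures were -2.78 for Ccdc107, -2.69 for Wnk1, -2.66 for Cyfip1, -2.53 for Atp2b4, -2.27 for Sema6c and -2.26 for Ppp2r5d. Of these, Atp2b4 did not pass without that allowance, at -1.63. Among circRNAs they were 3.70 for that of Fam172a, 3.67 for Gbe1, 3.40 for Eefsec, 3.16 for Dennd1b, 2.81 for Ccdc7 and 2.71 for Cnot6l, on the log2(RPM + 1.18) scale.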

How the results depend on the processing

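Of 124 named gene differences, 105 kept their direction and their side of the threshold under every alternative run; 22 of 2818 values were weaker, and the calls lost were those of markers of the other tissues and of Des, Lyz2 and Ros1 in a 2-group fit, with Lamp3 also lost with 0.1 TPM added and Ros1 also with 5 TPM added or without 20-week testis library 2. Of 28 named circRNA differences 18 kept theirs (53 values weaker and 5 stronger of 741), and of 12 ratios 11 did (1 weaker of 318). Of departures, 4 of 12 genes (23 weaker and 1 reversed of 246) and 2 of 9 circRNAs (36 weaker and 2 stronger of 195) kept theirs. The reversed one was Tnp2, at -0.0179 with no age term, a setting chosen after seeing the data. Where no cause is named here, it was not tested.

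With 0.1 or 5 TPM added, 69 or 360 genes departed upward. With no filter 340 departed upward and 1123 downward, with equal medians 827 and 110, with equal quantiles 142 downward, and with no age term 351 downward. A 2-group fit, which puts differences among the other tissues into the error, called 3093 genes lower, 5 circRNAs lower, and 75 ratios higher and 92 lower. At a threshold of 0.1 TPM the difference in number of genes was 2424.83 (means 19452.7 and 17027.8, exact permutation p = 0.0044). With the circRNA constant 5 times smaller, 5 circRNAs were below each tissue, 1 departed downward and 84 ratios were lower; with it 5 times larger, 1 was below each tissue, 109 departed upward and 254 ratios were lower. With no read floor, which tests more circRNAs, 726 were higher and 307 lower, 478 above and 1 below each tissue, 141 departed upward and 13 downward, and 1698 ratios were higher and 1335 lower. At 50 reads, which tests fewer, these were 66 higher, 69 lower, 29 above each tissue and 11 departing upward, with 60 ratios higher and 50 lower. With equal circRNA totals 6 departed upward and 2 downward. With equal medians 277 circRNAs were lower and 0 departed upward. By edgeR with the implied library size or with TMM, 35 or 46 were lower and 0 departed upward either way. In the 20-week libraries alone, 51 circRNAs were higher and 111 lower, and 37 ratios were higher and 67 lower. With 20 reads required outside the 14-week testis library, which tests fewer, 0 departed upward. Over the same circRNAs, but with the 14-week testis library left out, 114 ratios were higher. Both settings were chosen after seeing the data.

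Leaving out 1 library at a time gave 4564 to 6348 genes higher and 8215 to 9004 lower, 2506 to 4003 above each tissue and 2097 to 2583 below. The filters were applied again each time, so the number of genes and circRNAs tested varied. For circRNAs it gave 65 to 208 higher, 123 to 176 lower, 26 to 115 above each tissue and 1 to 4 below, with 77 to 201 ratios higher and 112 to 170 lower. Departing genes numbered 3 to 280 upward and 41 to 1990 downward, and circRNAs 35 to 62 and 0 to 4. The difference in summed abundance was 0.429 to 1.13 (exact permutation p from 0.212 to 0.714), that in number of circRNAs 0.618 to 1.25 (p from 0.0742 to 0.495) and that in number of genes 1062 to 1486.5 (p from 0.135 to 0.341).

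Same-numbered libraries did not deviate together: the correlations of their deviations ran from 0.0159 to 0.0982 for genes and from -0.0431 to 0.0411 for circRNAs, with 0 of 10 pairs above 0.1. The fit with a replicate block called 6394 genes higher and 9316 lower, 4068 above and 2638 below each tissue, 215 circRNAs higher and 185 lower, 117 above and 3 below each, and 214 ratios higher and 168 lower. Exact permutation within the block gave p = 0.416 for summed abundance, 0.176 for the number of circRNAs and 0.216 for the number of genes. Depth limits the circRNA results: liver libraries hold as few as 1231 circRNA reads, so a circRNA missing there is not shown to be absent.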
